A study of Rattus norvegicus with 4 samples.

Results

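The rat miRNAs with the serial numbers miR-3541 to miR-3596 are a run of late entries in the miRNA catalogue whose names were given to rat sequences. Probes on the array were taken as members when their identifier began with MIMAT and their number lay in that range, with starred names left out, of which the range held 0. This gave 75 probes of the 679 miRNA probes on each array, covering 55 different numbers. The rule uses names and numbers and no threshold on a measured value.

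Ventral and lateral prostate were taken from male TRAP rats, a strain in which a transgene under the prostate-directed probasin promoter makes the SV40 large T antigen in the prostate epithelium, so that every rat, saline controls included, carries the tumour-inducing transgene. Rats were 6 weeks old at the start, ate a control diet, and received saline or OBP-801, an inhibitor of histone deacetylases, into a vein 2 times a week for 8 weeks. The labels give the dose as 1 mg in some fields and per kg of body weight in another. Total RNA was labelled with the dye Hy5, and each of the 4 groups (either lobe, given saline or OBP-801) has 1 array, from a number of animals that the labels do not give. There was therefore no replicate of any group, and each difference below is between single arrays. By their scan names, the ventral pair shares a slide and the lateral pair another, with saline in position 1 and OBP-801 in position 2 of each, so the agent cannot be told apart from the position, nor the lobe from the slide.

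A miRNA is cut from a folded hairpin precursor, which can release a strand from its 5′ arm and another from its 3′ arm, named 5p and 3p. The strand is loaded onto an Argonaute protein and pairs with messenger RNAs mainly through its seed, bases 2 to 8, which lowers their stability or translation. Numbers are given in order of submission, and late numbers often belong to miRNAs found by deep sequencing in few tissues. Inhibitors of histone deacetylases raise the acetylation of histones and change the transcription of many genes, miRNA precursors among them.

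The mature sequences of the members detected on all 4 arrays are shown first, since all level differences below rest on them. They are RefSeq entries on the GRCr8 assembly, in lower case with the seed in capitals. Of the 13 such members, miR-3577 had no mature sequence in the reference used here.
miR-3584-5p: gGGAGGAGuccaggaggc
miR-3573-3p: uUCCUAACucugcccccucccau
miR-3559-5p: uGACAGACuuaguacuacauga
miR-3541: uCCCUCCCccucacugca
miR-3594-3p: cACACCGCcucugcccgcuagu
miR-3593-3p: cUUCAACCuuaagggggccuca
miR-3594-5p: cCCAGGGCagagcagugugaa
miR-3569: gGAGGACAgcagacucagguc
miR-3596c: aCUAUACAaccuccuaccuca
miR-3547: uGAGCACCaccccucucucagau
miR-3558-5p: cCAUAGAAgucaucccacagugcc
miR-3562: uUGGGGCAguggcuggauggga

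The seeds of these 12 all differ. Among the 67 members with a reference sequence (61 matched by name and 6 through the gene symbol of a renamed miRNA), 67 distinct seeds were counted, and 2 members share a seed with another rat miRNA: miR-3573-5p with miR-423-5p, and miR-3596d with 3p strands of the let-7 family. Another 3 members had a gene but no mature sequence, and 5 had neither. The members are therefore a group by name and date, and not a seed family.

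The member furthest above the detection limit, miR-3584-5p, is 18 bases long with a GC content of 72.2%. It lies at chr1:256727582-256727599, minus strand. Its precursor, of 81 bases and 70.4% GC, is shown with the 5p and the 3p strand in capitals.
Mir3584 hairpin: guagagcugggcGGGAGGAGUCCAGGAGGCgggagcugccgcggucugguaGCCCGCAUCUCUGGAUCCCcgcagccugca
The hairpin (chr1:256727531-256727611, minus strand) begins 50 bases inside the start of Itprip, on the same strand. Itprip encodes a protein that interacts with the inositol trisphosphate receptor. A long non-coding RNA gene, LOC120100050, overlaps on the opposite strand. The longest stretch that miR-3584-5p shares with any of 692 other rat mature miRNAs is 9 bases, with miR-665. miR-665 was detected on all arrays, at 196.4, 282.1, 189.0 and 281.8 (ventral saline and OBP-801, then lateral), and its OBP-801 minus saline difference was 0.62 in ventral and 0.44 in lateral prostate on the normalized log2 scale. Its lateral minus ventral difference was -0.19 under saline and -0.37 under OBP-801. These are the directions found for miR-3584-5p below, and whether the probes share signal was not tested.

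Most members were not detected. Detection required a median spot intensity that exceeded the average of the array's 2278 blank spots by 2 SD. The limits were 123.9 (saline) and 116.4 (OBP-801) intensity units in ventral prostate and 124.6 and 129.1 in lateral prostate, and this order of the 4 arrays is used throughout. In that order 20, 20, 19 and 26 members passed, or 26.7%, 26.7%, 25.3% and 34.7% of the 75. Over all 679 probes the shares were 44.0%, 42.7%, 42.7% and 48.5%. Among the members and among all miRNAs alike, the largest count was in lateral prostate with OBP-801. By this limit 4.52%, 2.15%, 3.64% and 2.85% of blank spots also passed, as did 16.7%, 0%, 4.17% and 0% of the 24 negative controls, so signals just above the limit also occurred without a miRNA probe. In bulk tissue, fewer cells of a type and less RNA per cell cannot be told apart.

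By member, 13 were detected on all 4 arrays, 3 on 3, 6 on 2, 12 on 1 and 41 on none. The share detected on all arrays was 17.3%, against 35.6% of all 679 miRNA probes, 47.1% of the 363 other miRNAs without a starred name, and 36.9% of 65 other miRNAs with numbers of 600 or more. The share detected on any array was 45.3%, against 55.8% of all probes. These shares describe the probe sets and carry no test. The share on all arrays was the lowest for the members among these 4 sets, which overlap in part.

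The plot of signals over the detection limit shows how the 34 detected members are spread.

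**Figure D1:**
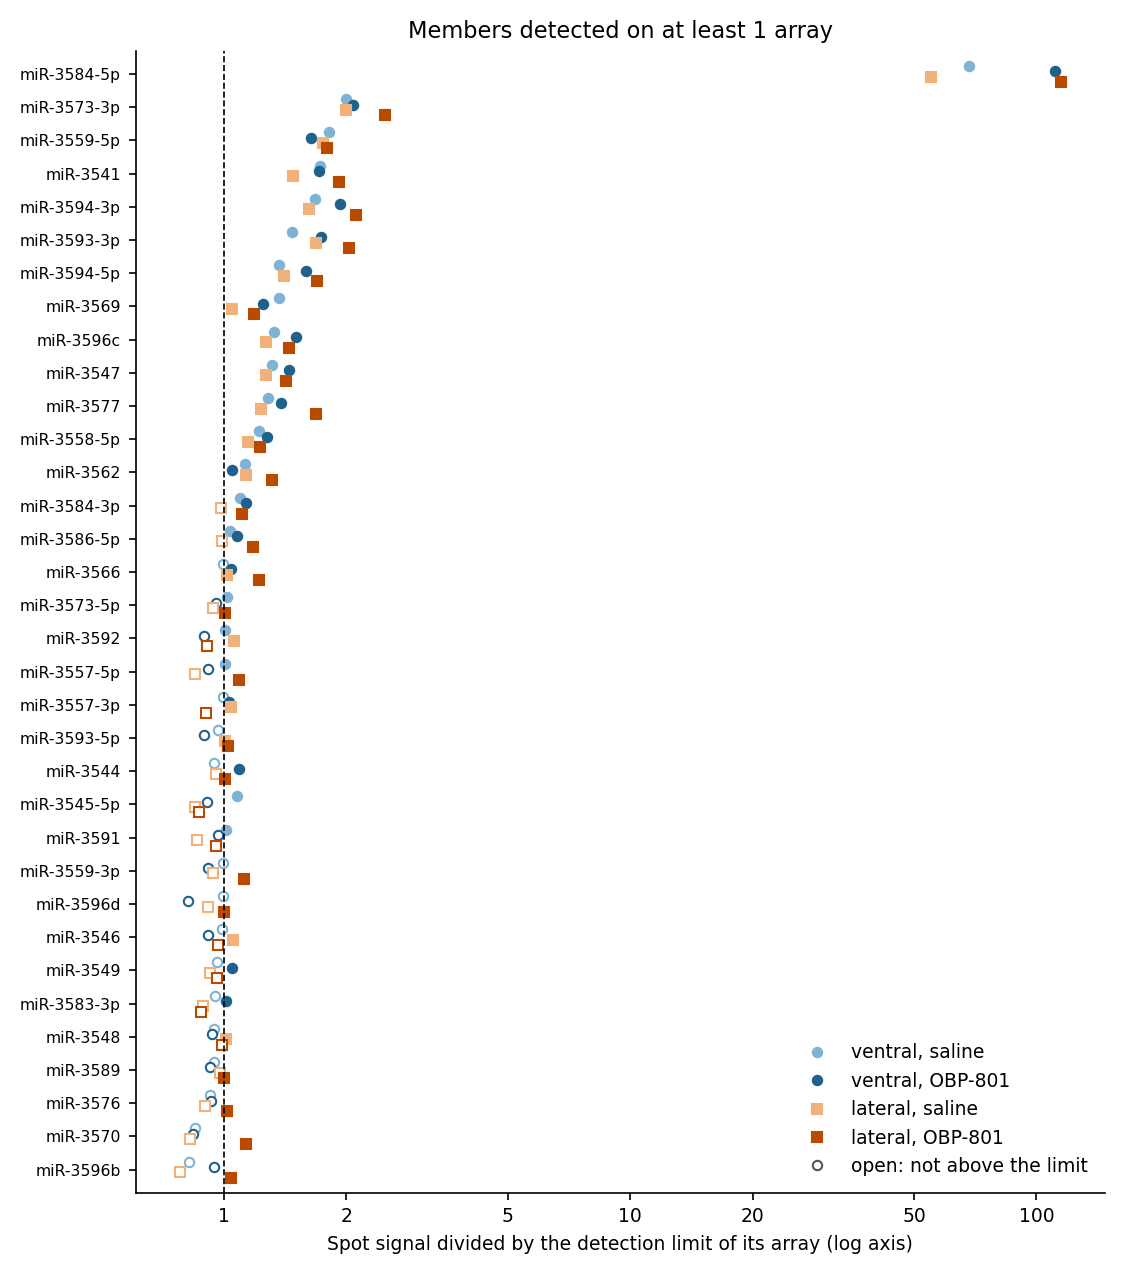
Spot signal divided by the array's detection limit (log axis) for the 34 members detected on at least 1 array, 1 point per array, with circles for ventral and squares for lateral prostate, light colours for saline and dark colours for OBP-801, and open symbols at or under the limit. miR-3584-5p lies between 55.0 and 114.7 times the limit on every array, and the other 12 members detected on all 4 arrays lie between 1.05 and 2.49 times it.

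miR-3584-5p (MIMAT0017875) had signals of 8430 (saline) and 12912 (OBP-801) in ventral prostate and of 6856 and 14805 in lateral prostate. Both OBP-801 arrays were above both saline arrays. After background correction and quantile normalization its log2 levels were 13.21, 14.02, 12.67 and 13.48. The 5 spots touching its spot had signals between 97.5 and 323.8 over the 4 arrays, and its local background was 49.0 to 58.2 units, against array means of 39.5 to 44.1. Its signal was therefore not shared by its neighbours.

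OBP-801 minus saline was 0.80 on the log2 scale in ventral prostate (1.74-fold) and 0.81 in lateral prostate (1.75-fold). Quantile normalization gives each miRNA the mean level of its rank over the arrays, and by signal miR-3584-5p ranked 5, 3, 9 and 4. The near match between the lobes rests on that step, as the values without normalization below show. The spread of the differences of all detected miRNAs, as a scaled median absolute deviation, was 0.26 in the ventral and 0.23 in the lateral comparison. No replicate spot of the probe exists, but the 8 spots of each bright spike control had SDs of 0.036 to 0.20 log2 units within an array, and those of 12 dim controls 0.054 to 0.20. Both differences exceed these spreads, which are not a spread between animals.

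The size depended on how arrays were put on a common scale, and the order of agent did not. Without normalization OBP-801 minus saline was 0.62 in ventral and 1.11 in lateral prostate, where the median difference of all detected miRNAs was -0.07 and 0.19. In the authors' deposited table they were 0.28 and 0.95, with a median of all miRNAs of -0.47 and 0.15. Relative to the median of all miRNAs, the difference was 0.69 to 0.84 in ventral and 0.79 to 0.98 in lateral prostate over the 10 settings tried.

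The lobe difference of miR-3584-5p was less settled. Lateral minus ventral was -0.55 under saline and -0.54 under OBP-801 after quantile normalization. Without normalization it was -0.30 under saline and 0.20 under OBP-801, so the direction under OBP-801 turned, and it was also above 0 with scaling on the spike controls (0.21) and in the authors' deposited table (0.22). Relative to the median of all miRNAs it was below 0 in each setting, from -0.60 to -0.32 under saline and from -0.53 to -0.08 under OBP-801.

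**Figure D2:**
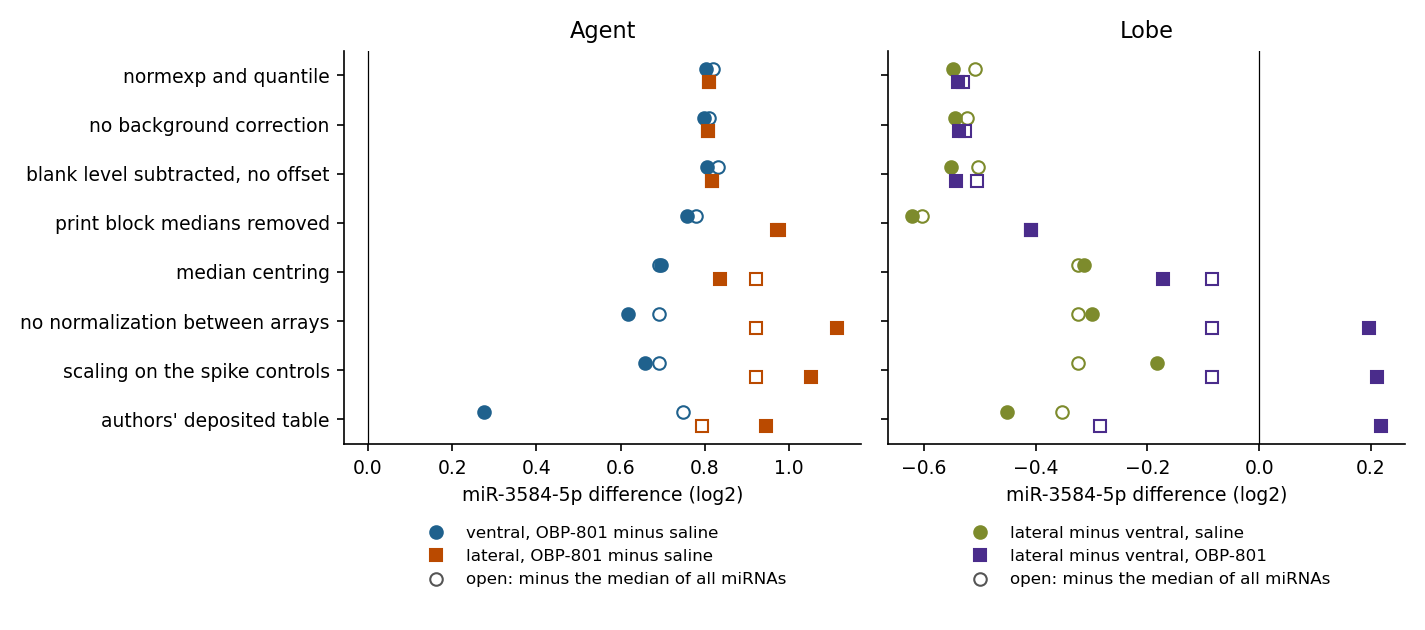
Log2 difference of miR-3584-5p under 8 ways of processing, for OBP-801 minus saline in each lobe (left) and for lateral minus ventral under each agent (right), filled as computed and open after subtraction of the median difference of all detected miRNAs. The agent differences are all above 0. The lobe difference under OBP-801, as computed, is above 0 without normalization between arrays, with spike scaling and in the authors' deposited table.

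Both lobes were combined in an additive limma fit with terms for lobe and agent over the 242 miRNAs detected on all 4 arrays. The fit has 1 residual degree of freedom. Its residual comes from how far the agent difference varies between the lobes, and does not measure a spread between animals. For miR-3584-5p these differences were 0.80 and 0.81 here, but 0.62 and 1.11 without normalization, for which the fit was not run. The SE of its agent term was 0.098 with median centring and 0.20 when the variance was allowed to follow intensity, against 0.087 here. The agent term of miR-3584-5p was 0.81 (SE 0.087), with an unadjusted p of 0.0013 and a Benjamini-Hochberg adjusted limma p of 0.153. The lobe term was -0.54 (SE 0.087), with an adjusted limma p of 0.0942. At an adjusted p under 0.05 the fit called 0 of 242 miRNAs for the agent and 0 for the lobe, while 40 had an unadjusted p under 0.05 for each term, which is 16.5% of all tested for the agent and 16.5% for the lobe. Of the 13 members, 1 was among them for the agent (miR-3584-5p) and 2 for the lobe (miR-3584-5p and miR-3569). When the background was not corrected, the adjusted limma p of miR-3584-5p was 0.0141 for the agent and 0.0253 for the lobe, so its call depended on that step, and over the other 4 alternatives it was 0.0541 to 0.213 and 0.144 to 0.312.

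In the same samples, the 5 markers of smooth muscle and fibroblasts (miR-143, miR-145, both strands of miR-199a, and miR-214) were detected on all arrays, with summed signals of 7079, 8289, 9808 and 17730 and median OBP-801 differences of 0.34 in ventral and 0.27 in lateral prostate. Of the 5, 3 were above 0 in both lobes. The endothelial marker miR-126 differed by 0.47 and 0.42. These medians and miR-126 moved in the same direction as miR-3584-5p, but miR-145 was at -0.31 in ventral and miR-143 at 0.00 in lateral prostate. Both values rest on the normalization. The signals were 2888 (saline) and 3148 (OBP-801) for miR-145 in ventral prostate, and 5500 and 7378 for miR-143 in lateral prostate. Lateral minus ventral was above 0 for miR-143 (0.78 under saline, 0.63 under OBP-801) and miR-126 (0.14, 0.09), unlike miR-3584-5p. It was -0.10 and -0.39 for miR-199a-3p, -0.36 and 1.09 for miR-145, 0.18 and -0.15 for miR-199a-5p, and -0.26 and 0.00 for miR-214. The part of these markers in the difference of miR-3584-5p was not tested. Of 8 epithelial markers 8 were detected on all arrays, with summed signals of 43544, 36055, 59253 and 76798. Their median differences were -0.23 and 0.00. The lateral differences of miR-200a, miR-200b and miR-429 were exactly 0.00, since quantile normalization gave each the same level on both lateral arrays. Their lateral signals were 23839 and 24885, 24427 and 38562, and 2750 and 3565 (saline, then OBP-801). Without normalization the median lateral difference of all detected miRNAs was 0.19. Among the epithelial markers miR-205 differed by 0.62 and 0.58. Between lobes it differed by -0.37 under saline and -0.41 under OBP-801, in the same directions as miR-3584-5p. The 5 leukocyte markers on the array had medians of -0.15 and -0.18. The liver marker miR-122 was detected on no array.

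The other strand of the precursor, miR-3584-3p, had signals of 135.6, 131.8, 122.4 and 143.2 and was above the limit on all arrays but lateral saline. Its difference was 0.06 between the ventral arrays, and in lateral prostate it was at least 1.08-fold higher under OBP-801, where it was detected only with the drug. A fold stated as "at least" is a bound: the normalized level on the array that detected the miRNA over that on the other array, or over the lowest detected level there if that is higher. The 5p strand was far above the limit on each array and the 3p strand close to it.

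The other 12 members detected on all arrays were dim. Because an offset of 50 units is added during background correction, their differences are understated. They are ordered here by the gene in which they lie.

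Cep131, which encodes a protein of the centrosome and the cilium base, holds 3 of them on its own strand. miR-3594-3p (chr10:105845832-105845853, minus strand) had signals of 207.4, 225.3, 201.4 and 272.7, with OBP-801 minus saline at 0.22 in ventral and 0.24 in lateral prostate. Its partner strand miR-3594-5p (chr10:105845867-105845887, minus strand) had 169.2, 185.7, 175.5 and 218.1, with differences of 0.20 and 0.18. Both strands of this precursor were higher on the OBP-801 array of each lobe, by about the spread of all miRNAs or less. miR-3562 (chr10:105848002-105848023, minus strand) had 139.4, 121.8, 141.4 and 169.6, with differences of -0.14 and 0.13. It comes from another hairpin of the same gene, and its differences had opposite signs in the lobes.

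miR-3573-3p (chrX:68299322-68299344, plus strand) lies on the strand of Efnb1, the gene of ephrin-B1, a membrane ligand of Eph receptors. Its signals were 248.0, 241.7, 248.7 and 321.9, so that 3 arrays were close together and lateral OBP-801 was higher, and its differences were -0.01 and 0.22. miR-3541 (chr2:176878671-176878688, plus strand) lies on the strand of Clk2, a kinase that phosphorylates splicing factors. It had signals of 213.0, 199.2, 184.5 and 247.1 and differences of -0.09 and 0.22. Its signal too was highest on the lateral OBP-801 array, but its normalized log2 levels were 7.56, 7.47, 7.24 and 7.47, highest in ventral saline.

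miR-3547 (chr10:14766777-14766799, minus strand) lies on the strand of Baiap3, a gene of regulated vesicle release. Its signals of 162.4, 167.8, 158.4 and 183.1 gave differences of 0.11 and 0.06. miR-3577 lies within Tmem94, a membrane protein gene, and had signals of 158.6, 161.0, 153.6 and 217.5 with differences of 0.09 and 0.33, which left lateral OBP-801 apart from the other arrays. miR-3558-5p (chr6:12935368-12935391, minus strand), within Ttc7a, had 150.8, 148.7, 143.0 and 158.2 and differences of 0.08 and -0.07, both smaller than the spread of all miRNAs.

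miR-3559-5p (chrX:73660193-73660214, minus strand) lies within Zdhhc15, a gene for a protein palmitoyltransferase. Its signals were 224.1, 191.1, 218.6 and 231.3, and it alone among the 13 was lower under OBP-801 in both lobes after normalization, at -0.26 and -0.18. Its lateral signal before normalization was higher with the drug, so the lateral sign rests on the normalization. miR-3569 (chr1:94969072-94969092, plus strand) lies opposite the strand of Kmt2b, a gene for a histone methyltransferase. It had signals of 169.1, 145.2, 130.4 and 153.0 and drug differences of -0.24 and 0.11.

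miR-3593-3p (chr6:78987770-78987791, minus strand) lies in no protein-coding gene of the annotation and had signals of 181.7, 202.0, 209.8 and 262.1, with differences of 0.30 and 0.06. The ventral saline array was its lowest. miR-3596c (chr1:67350243-67350263, minus strand), opposite the let-7e precursor, had 164.7, 175.0, 158.5 and 186.4, with differences of 0.18 and 0.07, both within the spread of all miRNAs.

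Over the members detected on both arrays of a pair, few differences reached 1.5-fold. In ventral prostate 1 of 15 members was at least 1.5-fold higher under OBP-801, against 2.69% of the 260 miRNAs tested, and 0 were lower, against 3.85%. In lateral prostate 1 of 15 was higher, against 2.21% of 271, and 0 were lower, against 2.58%. The member was miR-3584-5p in both lobes, and 0 members reached 2-fold. With 1 member in each lobe, the counts are too small to set apart from the background shares.

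The median member difference was 0.09 in ventral prostate, against -0.02 over all miRNAs, and 0.13 in lateral prostate, against 0.00. It was above 0 for 10 of 15 members in ventral prostate, against 47.3% of all miRNAs, and for 12 of 15 in lateral prostate, against 47.2%. The other late-numbered miRNAs had medians of 0.02 and 0.11. Of the 13 members on all arrays, 7 were above 0 in both lobes (53.8%, against 30.2% of 242), 1 was below in both and 5 had opposite signs. Apart from miR-3584-5p, the differences of the members on all arrays lay between -0.26 and 0.33, close to the spread of all miRNAs.

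Between lobes, 0 of 14 members reached 1.5-fold under saline in either direction, against 3.53% of 255 miRNAs higher in lateral and 1.96% lower. Under OBP-801 the count was 0 of 17, against 4.06% of 271 higher and 2.58% lower. The median member was at -0.09 under saline and -0.03 under OBP-801, with -0.04 and -0.01 over all miRNAs. Of the 13 members, 8 were lower in lateral prostate under both agents (61.5%, against 36.0% of 242) and 0 were higher under both. Without normalization the members' median lateral minus ventral difference under OBP-801 was 0.25, so these directions rest on the scaling.

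miR-3569 and miR-3584-5p had the lowest lateral minus ventral values of the 13 under saline. That of miR-3569 was -0.55 under saline and -0.21 under OBP-801, where miR-3558-5p was lower, at -0.26. In the additive limma fit its lobe term was -0.38 (SE 0.13), with an unadjusted p of 0.047 and an adjusted limma p of 0.286. Its signal was highest in ventral saline and lowest in lateral saline.

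**Figure D3:**
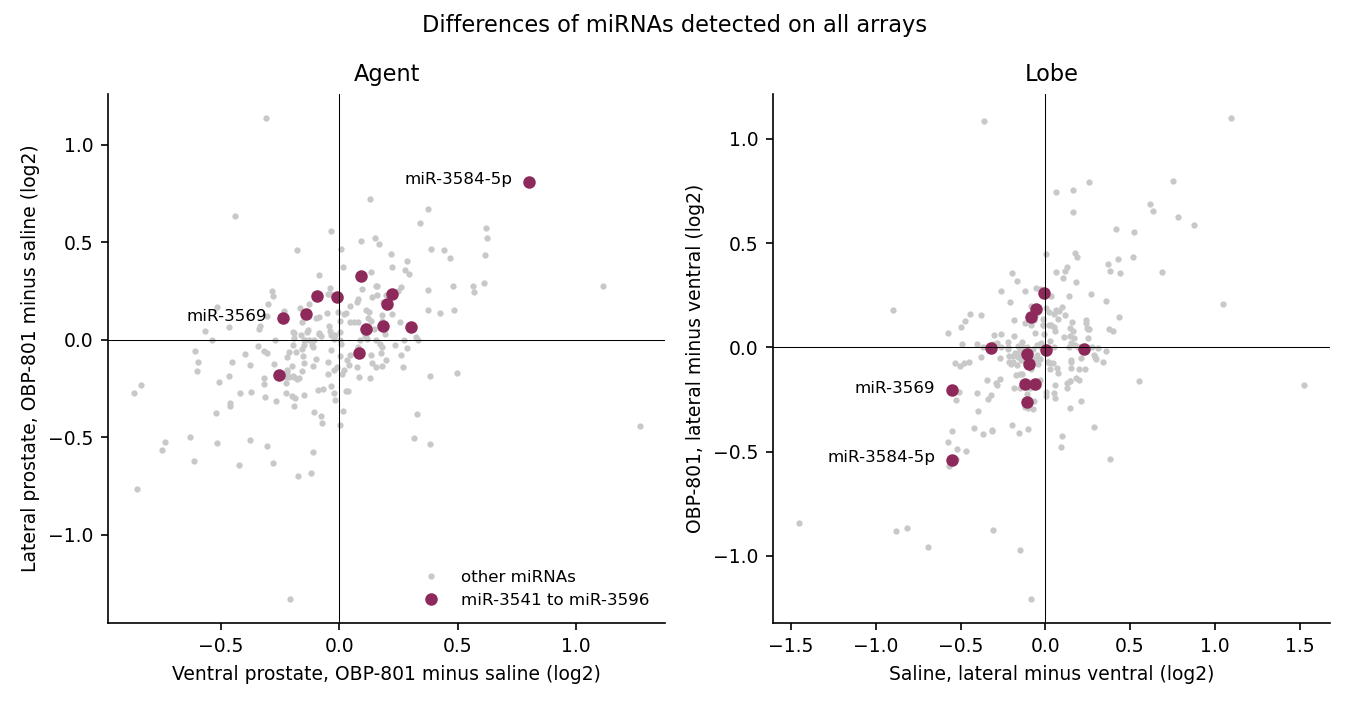
Log2 differences of the 242 miRNAs detected on all 4 arrays, as OBP-801 minus saline in lateral against ventral prostate (left) and as lateral minus ventral under OBP-801 against saline (right), with 13 members in purple and the others in grey. miR-3584-5p stands at 0.80 and 0.81 in the left panel, away from the other 12 members, which lie between -0.26 and 0.33.

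Members detected on 3 arrays missed the limit by little on the remaining array. miR-3586-5p had signals of 128.0, 125.1, 123.5 and 152.2, missed it in lateral saline and was at least 1.17-fold higher under OBP-801 in lateral prostate. miR-3566 had 123.1, 121.2, 126.8 and 157.0, and missed it in ventral saline. Both had their highest signal in lateral OBP-801.

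Members detected on 2 arrays were miR-3573-5p, miR-3557-5p, miR-3557-3p, miR-3592, miR-3593-5p and miR-3544, with signals from 103.7 to 140.5. miR-3592 had 124.6, 103.7, 131.5 and 117.3, above the limit in both saline arrays and under it in both OBP-801 arrays. It was at least 1.04-fold lower under OBP-801 in ventral and at least 1.23-fold lower in lateral prostate. miR-3544 showed the reverse, with 117.0, 127.0, 119.0 and 129.9, and was at least 1.16-fold higher in ventral and at least 1.03-fold higher in lateral prostate. These bounds hold on the quantile-normalized scale: the signals of miR-3592 in lateral and of miR-3544 in ventral prostate differed by less before normalization. Such steps across the limit amount to few intensity units and carry no test.

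Of the 12 members detected on 1 array, 6 were detected only in lateral OBP-801 (miR-3559-3p, miR-3596d, miR-3589, miR-3576, miR-3570 and miR-3596b). In the other groups 2 each were found: miR-3545-5p and miR-3591 in ventral saline, miR-3549 and miR-3583-3p in ventral OBP-801, and miR-3546 and miR-3548 in lateral saline. Among the 6, miR-3570 had 105.0, 97.4, 103.0 and 146.3 and was at least 1.15-fold higher under OBP-801 in lateral prostate. miR-3596b had 101.6, 109.7, 96.8 and 134.5 and was at least 1.02-fold higher. That array also had the highest detection over all miRNAs. Of all 679 miRNA probes, 69 were detected on 1 array, and their division among the arrays was not counted. The 6 therefore have no background share to be set against. Over the 4 comparisons no member's bound was above 1.23-fold.

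The 41 members detected on no array had signals of 88.0 to 119.1 (median 106.4) and 77.1 to 115.3 (median 96.4) in ventral prostate with saline and OBP-801, and of 90.4 to 123.6 (median 106.1) and 97.8 to 127.4 (median 110.1) in lateral prostate. The blank spots averaged 101.9, 100.1, 104.1 and 109.4. The undetected members thus lay at the level of spots with no probe, where a low level cannot be told from absence. They were miR-3542, miR-3543, miR-3545-3p, miR-3550, miR-3551-3p, miR-3551-5p, miR-3552, miR-3553, miR-3554, miR-3555, miR-3556a, miR-3556b, miR-3558-3p, miR-3560, miR-3561-3p, miR-3561-5p, miR-3563-3p, miR-3563-5p, miR-3564, miR-3567, miR-3568, miR-3571, miR-3572, miR-3574, miR-3575, miR-3578, miR-3579, miR-3580-3p, miR-3580-5p, miR-3581, miR-3582, miR-3583-5p, miR-3585-3p, miR-3585-5p, miR-3586-3p, miR-3587, miR-3588, miR-3590-3p, miR-3590-5p, miR-3595 and miR-3596a.

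Position in the genome divided the members. Of the 67 with a reference sequence, 31 lie on the strand opposite to a hairpin of another miRNA and are complementary to its mature strand over 16 to 22 bases. Examples are shown because their partners are known miRNAs of epithelium, liver and the let-7 family, with the complementary bases in capitals.
miR-3596c: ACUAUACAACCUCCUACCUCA
let-7e-5p: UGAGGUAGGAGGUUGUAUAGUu
miR-3548: CAGCACUGUCCGGUAAGAUGcc
miR-200a-5p: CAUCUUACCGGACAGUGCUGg
miR-3575: ACUGCUGGGUAAGACGag
miR-200c-5p: CGUCUUACCCAGCAGUguuug
miR-3591: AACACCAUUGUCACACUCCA
miR-122-5p: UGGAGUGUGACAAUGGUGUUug

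let-7 miRNAs are widely expressed regulators of developmental timing, the miR-200 family is known for keeping epithelial identity, and miR-122 is a liver miRNA. Of the 31 members opposite a miRNA, 1 was detected on all arrays (miR-3596c) and 11 on any (35.5%). Of 15 members counted in a protein-coding gene on its own strand, 7 were detected on all arrays (46.7%) and 10 on any. Among the 15 is miR-3568, detected on no array, whose strand the reference did not give, so its place in this class is not settled. Of 12 others in a protein-coding gene, 4 were detected on all and 9 on any. Of 12 members elsewhere 1 was detected on all and 3 on any, and of 5 not placed 0 and 1.

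The partners were mostly present. Of 30 members whose partner hairpin has a probe here, 20 had a partner with at least 1 strand, complementary to the member or not, detected on all 4 arrays, and of those 20 members 13 were detected on no array, 6 on 1 to 3 arrays and 1 on all. The probe miR-200a, for the major strand of the hairpin opposite miR-3548 and not the 5p strand it complements, had signals of 16779, 11685, 23839 and 24885 and was detected on all arrays, while miR-3548, at 117.3, 108.5, 126.2 and 127.4, passed the limit only in lateral saline. The probe miR-200c, likewise for the major strand and not the 5p strand that miR-3575 complements, was detected on all arrays, at 3593, 3338, 4624 and 5392, and miR-3575 on none. The 5p strands have probes of their own, miR-200a* and miR-200c*, whose signals were not set against those of the members. Of these, miR-200a* was detected on all arrays. miR-122, which miR-3591 complements, was detected on no array. miR-3591 passed only in ventral saline, at 125.5 against a limit of 123.9, where 4.52% of blank spots also passed. Both therefore lay at or near the level of blank spots. On chromosome 6, 8 members lie opposite miRNAs of a large imprinted cluster, of which 0 were detected on all arrays and 3 on any.

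Of 16 precursors with both strands among the members, miR-3594 had both detected on all arrays. In 5 only 1 strand was, in 3 of these the 5p strand (miR-3558, miR-3559 and miR-3584) and in 2 the 3p strand (miR-3573 and miR-3593). In 6 neither strand was detected on any array.

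Base composition went with signal. The median GC content was 59.2% for 12 members detected on all arrays, 50% for 19 detected on 1 to 3 and 45.6% for 36 detected on none, each counting those with a sequence. Across the 67 members, GC content and mean signal over the limit had a Spearman rho of 0.50, given as a description since all points come from the same 4 arrays. Members in a gene on its own strand had a median GC content of 62.8%, and those opposite a miRNA 44.4%, so position and composition moved together, and their separate parts were not tested.

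**Figure D4:**
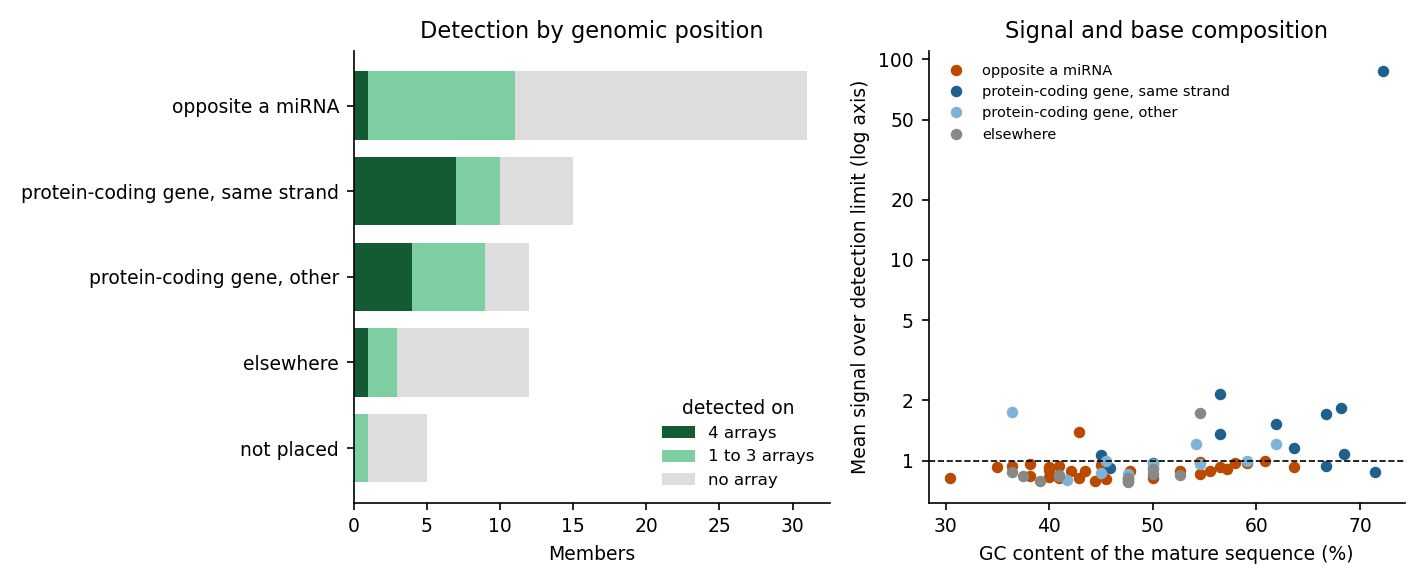
Number of members by genomic position, split into those detected on 4 arrays, 1 to 3 arrays and no array (left), and mean signal over the detection limit (log axis) against GC content of the mature sequence in percent for 67 members, coloured by position (right). Most members opposite a miRNA lie at or under the limit, and miR-3584-5p stands alone at the top with 72.2% GC. In the left panel miR-3568, whose strand is not known, is counted with members on the strand of their gene.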

How the data were processed

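Per the labels' protocols, the arrays have a single colour, from total RNA carrying Hy5. The deposited scanner files hold the median intensity of every spot and its local background intensity, per the file headers, neither corrected nor normalized. The sources used here name no array maker and no scanner software. The deposited value table, also intensity values, was scaled by the authors in ways that no label states. It is linear, with a median of 25 on every array, and was used as an alternative.

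Of the 3136 spots on an array, 2278 are blank and each miRNA has 1 spot. Background was corrected with normexp and an offset of 50 over all spots. Values were put on the log2 scale, 1 faulty spot of another miRNA was set to missing, and control spots were dropped. Quantile normalization between arrays followed on the log2 values, in limma 3.58.1 under R 4.3.3. Called means at least 1.5-fold among miRNAs detected on both arrays. The additive limma fit (lmFit, eBayes, Benjamini-Hochberg adjustment) used the 242 miRNAs detected on all arrays. Precision is limited by the 4 arrays, 1 in each group.

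Every member detected on at least 1 array was named. The members and lists were chosen with earlier results of these data known. Sequences and gene positions are RefSeq entries on GRCr8, which is not a build named for the array, and 67 of 75 members matched. Alternatives changed the background correction, the normalization, the detection limit, the filter, the print block and the fit.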

Additional observations from a re-analysis of the deposited data

Results flagged for a closer look

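Some members moved in opposite directions under the same contrast, with 1 array in each group, and the difference was not tested for any of them. OBP-801 minus saline, in log2 units, was -0.14 in ventral and 0.13 in lateral prostate for miR-3562, 0.0835 and -0.0693 for miR-3558-5p, and -0.0115 and 0.22 for miR-3573-3p. It was -0.24 and 0.11 for miR-3569, and -0.0937 and 0.22 for miR-3541. Lateral minus ventral was -0.0099 under saline and 0.26 under OBP-801 for miR-3562, 0.23 and -0.0085 for miR-3593-3p, and -0.0846 and 0.15 for miR-3573-3p. It was 0.0039 and -0.014 for miR-3594-5p, and -0.0536 and 0.19 for miR-3577. All of these members were dim, at 1.05 to 2.49 times the detection limit.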

How the results depend on the processing

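Differences, counts and medians were recomputed under the alternatives named here, the additive fit under 5 of them and the bounds under none. Among the members only the OBP-801 differences of miR-3584-5p reached 1.5-fold in the main processing, and neither changed sign. Smaller differences did change sign in some settings, as given below. miR-3584-5p stayed higher under OBP-801 in both lobes in every setting run. Its lateral difference became 1.11 without normalization and 1.05 with scaling on the spike controls, and its ventral difference 0.28 in the authors' deposited table. Its lateral minus ventral difference under OBP-801 became 0.20 without normalization, -0.17 with median centring, 0.21 with spike scaling and 0.22 in the deposited table, and under saline -0.18 with spike scaling. The members' median lateral minus ventral difference under OBP-801 became 0.25, 0.27 and 0.39 without normalization, with spike scaling and in the deposited table. In that table the median OBP-801 difference was -0.37 in ventral and 0.36 in lateral prostate, where the median of all miRNAs was itself -0.47 and 0.15.

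Counts at 1.5-fold were as follows, each beside the count over all miRNAs tested. After subtraction of the blank level without an offset, 3 of 15 members were higher under OBP-801 in lateral prostate, against 26 of 271. In lateral against ventral prostate, 1 of 14 was lower under saline, against 27 of 255. Under OBP-801 1 of 17 was higher and 3 were lower, against 28 and 26 of 271. With print blocks removed, 1 of 14 was lower in lateral prostate under saline, against 9 of 255. In the authors' deposited values, under OBP-801, 0 of 20 were higher and 4 lower in ventral prostate, against 6 and 116 of 288. In lateral prostate 6 of 22 were higher and 1 lower, against 54 and 25 of 310. Between lobes, 3 of 21 were lower under saline, against 43 of 291, and 6 of 18 were higher under OBP-801, against 120 of 295. Without the filter, 2 of 75 were higher under OBP-801 in lateral prostate, against 9 of 679. With a limit of 4 SD, 10 members were detected on all arrays and 15 on any. Of the members on all arrays in the main processing, miR-3569, miR-3562 and miR-3558-5p did not pass it on every array. A limit from the negative controls gave 13 on all arrays and 32 on any, and trimmed blank spots gave 16 and 40. Without background correction the additive limma fit called 1 member for the agent and 1 for the lobe. With 1 array in each group there is no replicate number to use as a block and no array was left out. The additive fit is the comparison of agents paired within lobe. Dim signals limit all members but miR-3584-5p.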
